A study of Homo sapiens with 8 samples.

Results

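The genes that write and erase DNA methylation were examined in ATAC-seq peak lists of HEK293T cells, a human embryonic kidney line. The group held 8 genes, namely the methyltransferase genes *DNMT1*, *DNMT3A* and *DNMT3B*, the dioxygenase genes *TET1*, *TET2* and *TET3*, and the *UHRF1* and *UHRF2* genes. They were chosen by name, out of 19970 protein-coding genes on chromosomes 1 to 22 and X. Overlapping peaks (1 bp or more) from any library were joined to give 101836 regions, of which 52 overlapped the body of 1 of the genes or lay within 5 kb of a GENCODE transcription start site (TSS) of it. A region is called open in a library that has a peak in it. A region without a peak is called closed, which does not mean that it had no signal.

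The lines were HEK293T cells stably infected with lentivirus, and the EZH2 they carried was WT, Y641F, A677G or the double mutant H689A/F667I, each with 2 replicate libraries. Y641F and A677G are described by the study as gain-of-function (GOF) and H689A/F667I as loss-of-function (LOF). All 4 lines, WT included, therefore carried an EZH2 transgene and blasticidin selection, and each line was described as a monoclonal population. A line and its clone cannot be told apart here. The WT libraries held 64923 and 62514 peaks. Fewer were found in Y641F (26350 and 36598), A677G (38016 and 46358) and LOF (47840 and 48755). The read depth was not given in the sources used here.

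EZH2 is the Polycomb methyltransferase that places methyl groups on lysine 27 of histone H3. DNA methylation is a separate mark that is placed on the cytosine of CpG dinucleotides. DNMT3A and DNMT3B place it on unmethylated DNA, and DNMT1 copies it to the new strand after replication. UHRF1 binds hemimethylated DNA and brings DNMT1 to it, and UHRF2 is its paralogue. The TET enzymes oxidise 5-methylcytosine, which starts its removal. Promoters with many CpG dinucleotides are commonly unmethylated and open.

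Every one of the 8 genes had 1 promoter region that was open in all 8 libraries, where a promoter region lies within 1 kb of a TSS of the gene. In 7 of 8 genes this region lay at the canonical start, the start of the transcript that the annotation ranks first. The exception was *TET3*, in which the canonical start was closed in all 8 libraries and a start 17.8 kb downstream, in a region that overlaps exon 3 of the canonical transcript, was open in all 8. Among 19970 protein-coding genes, 55.8% had a canonical start open in all 8 libraries and 27.4% had one closed in all 8. A closed canonical start together with another start open in all 8 was found in 394 genes (1.97%).

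Sequences are shown for *TET3* and *DNMT3A*, in which 1 start was closed and another open, for *TET1*, in which an internal start was open as well, and for *UHRF2*, whose promoter stood apart in A677G. Each is a RefSeq promoter window of the GRCh38.p14 assembly that runs from 250 bases before a start to 50 bases after it, 5′ to 3′ on the strand of the gene, and CpG dinucleotides are in capitals. The *TET3* windows were chr2:73984660-73984959 at the canonical start and chr2:74002442-74002741 at the downstream start, both on the plus strand. The *DNMT3A* windows were chr2:25342434-25342733 at an upstream start and chr2:25252266-25252565 at an internal start, both on the minus strand. Those of *TET1* were chr10:68560087-68560386 at the canonical start and chr10:68600018-68600317 at an internal start, and that of *UHRF2* was chr9:6412949-6413248, all on the plus strand.
TET3 canonical start: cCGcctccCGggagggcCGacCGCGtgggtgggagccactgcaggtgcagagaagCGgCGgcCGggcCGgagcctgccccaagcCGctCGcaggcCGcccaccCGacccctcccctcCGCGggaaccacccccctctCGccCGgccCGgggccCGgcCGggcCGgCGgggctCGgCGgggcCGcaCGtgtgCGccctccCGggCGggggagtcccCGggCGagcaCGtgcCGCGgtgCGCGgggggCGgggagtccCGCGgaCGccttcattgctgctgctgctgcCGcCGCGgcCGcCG
TET3 downstream start: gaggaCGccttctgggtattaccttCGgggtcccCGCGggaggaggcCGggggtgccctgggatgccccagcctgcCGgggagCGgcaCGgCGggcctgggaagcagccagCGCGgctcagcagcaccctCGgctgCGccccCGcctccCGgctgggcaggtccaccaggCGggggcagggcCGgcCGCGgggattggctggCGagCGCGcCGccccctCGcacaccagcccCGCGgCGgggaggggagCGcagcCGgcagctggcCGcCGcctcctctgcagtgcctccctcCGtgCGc
DNMT3A upstream start: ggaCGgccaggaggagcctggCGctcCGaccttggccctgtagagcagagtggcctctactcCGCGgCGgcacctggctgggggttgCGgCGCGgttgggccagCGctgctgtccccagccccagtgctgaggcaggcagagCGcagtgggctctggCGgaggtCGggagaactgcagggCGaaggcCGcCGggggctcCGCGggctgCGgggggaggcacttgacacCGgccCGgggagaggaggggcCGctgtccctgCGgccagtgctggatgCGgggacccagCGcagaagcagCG
DNMT3A internal start: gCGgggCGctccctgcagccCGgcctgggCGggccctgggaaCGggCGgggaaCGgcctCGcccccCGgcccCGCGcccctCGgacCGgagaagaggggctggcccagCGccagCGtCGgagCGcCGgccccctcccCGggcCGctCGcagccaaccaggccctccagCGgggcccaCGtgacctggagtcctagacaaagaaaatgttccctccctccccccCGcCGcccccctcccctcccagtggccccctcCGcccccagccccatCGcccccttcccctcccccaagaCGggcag
TET1 canonical start: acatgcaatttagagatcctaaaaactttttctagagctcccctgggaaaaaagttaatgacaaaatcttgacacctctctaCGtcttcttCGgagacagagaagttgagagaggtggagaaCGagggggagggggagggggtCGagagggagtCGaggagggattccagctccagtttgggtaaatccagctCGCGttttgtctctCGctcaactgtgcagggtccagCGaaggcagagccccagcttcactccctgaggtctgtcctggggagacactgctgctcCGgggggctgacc
TET1 internal start: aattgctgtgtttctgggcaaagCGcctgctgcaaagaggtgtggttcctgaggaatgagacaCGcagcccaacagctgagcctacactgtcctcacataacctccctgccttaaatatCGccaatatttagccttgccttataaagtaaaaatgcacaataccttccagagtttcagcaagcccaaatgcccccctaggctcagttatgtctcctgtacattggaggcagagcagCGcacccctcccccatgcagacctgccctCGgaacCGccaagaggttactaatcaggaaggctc
UHRF2 canonical start: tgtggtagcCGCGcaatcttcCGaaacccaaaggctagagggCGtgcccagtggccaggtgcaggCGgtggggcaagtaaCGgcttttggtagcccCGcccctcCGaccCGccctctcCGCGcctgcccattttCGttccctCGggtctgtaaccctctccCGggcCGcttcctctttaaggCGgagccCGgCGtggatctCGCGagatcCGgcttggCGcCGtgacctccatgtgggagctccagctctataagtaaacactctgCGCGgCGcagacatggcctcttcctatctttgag

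Both *TET3* windows were rich in CpG. The canonical window held 45 CpG and was under no peak in any library, whereas the downstream window held 33 CpG and was under a peak in all 8. Over the 34789 RefSeq windows of the annotation the median was 14 CpG. It was 27 CpG in the 12456 windows under a peak in all 8 libraries and 4 CpG in the 16464 windows under no peak. At least 45 CpG were found in 0.881% of the windows under no peak, and 11.9% of the 1215 windows with that many CpG were under no peak. The GC content was 82.7% in the canonical *TET3* window, 79% in the downstream window and 66.3% in the median window under a peak in all 8. Whether the GC content bears on the recovery of fragments was not tested.

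*DNMT3A* had the same arrangement at other starts. The upstream start had 26 CpG in its window and was under a peak in all 8 libraries. The internal starts near 25252315, from which a shorter *DNMT3A* transcript is annotated, had 18, 26 and 28 CpG in their windows, and no library had a peak within 1 kb of them. The window at the canonical *DNMT3A* start had 46 CpG and was overlapped by peaks of 2 libraries, since most peaks of this promoter lay upstream of it. An internal *DNMT3B* start (chr20, position 32779852) with 3 CpG in its window was also closed in all 8.

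*TET1* differed from these. Its canonical window held 10 CpG and was under a peak in 7 libraries, and the promoter region extended downstream of it. The internal start at 68600268 held 6 CpG, contained the letters TATAAA of the TATA box, and was under a peak in all 8 libraries. Another internal start in the same region, at 68600474, held 11 CpG in its window and no TATAAA. It was under a peak in all 8 libraries as well. Both internal starts are annotated by RefSeq and not by GENCODE 44, so the region over them counts as intragenic. TATAAA was found on either strand in 11.6% of all windows, and in 4.25% of the windows under a peak in all 8. The GC box letters GGGCGG were found in 44.9% of all windows, in 74.5% of those under a peak in all 8 and in 18.6% of those under no peak. They occurred 3 times in the closed *TET3* window and 4 times in the closed *DNMT3A* window shown, once in the open *TET3* window and not in the open *DNMT3A* window shown. Other windows went both ways. Of those under a peak in all 8, *TET2* (start 105146876) had 5, *UHRF1* (start 4910144) 3 and *UHRF2* 2. *DNMT1*, the internal *TET1* starts and *DNMT3A* (start 25342590) had 0. Of those under no peak, *DNMT3A* had 3 (start 25252131) and 2 (start 25252263), *TET2* (start 105145875) 1 and *DNMT3B* 0. A match of letters is a description and not a binding site.

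**Figure D1:**
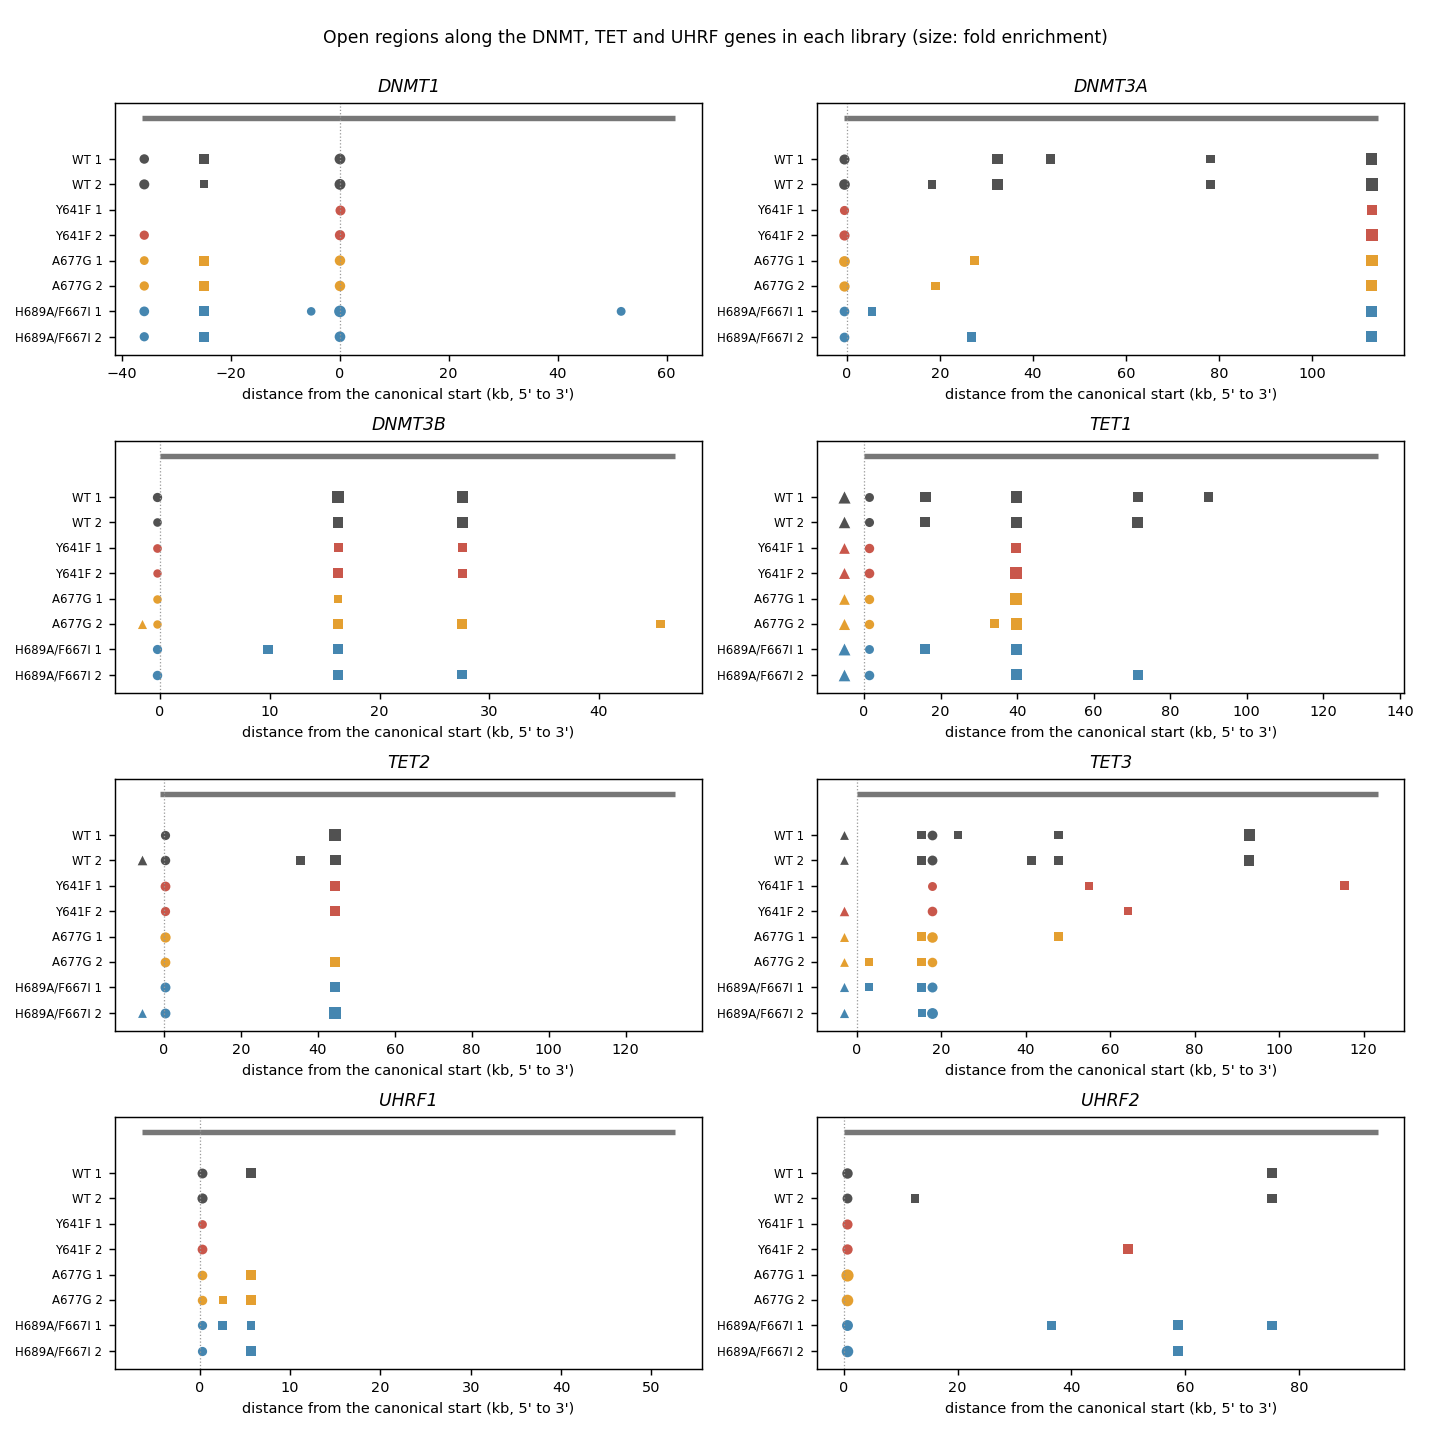
Position of each open region along the 8 genes in each library, as the distance of its middle from the canonical start in kb (x axis) by library (y axis). Circles are promoter regions, squares intragenic regions and triangles flanking regions, the size follows the fold enrichment, the grey bar is the gene body, and each gene has 1 column of circles present in all 8 libraries.

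Of the 52 regions, 11 were promoter regions, 37 were intragenic and 4 were flanking. Open in all 8 libraries were 8 promoter, 3 intragenic and 1 flanking region. These 12 regions were 23.1% of the 52, against 18.4% of the 101836 regions of the series. A further 22 (42.3%) were open in 1 library, against 39.2% in the series. The largest number of regions was in *TET3* with 11 and the smallest in *UHRF1* with 3.

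The 3 promoter regions that were not open in all 8 libraries all belonged to *DNMT1*, which has many annotated starts. The region at its most upstream start (chr19:10230115-10231516) was open in all libraries but Y641F replicate 1. It is shared with the starts of *S1PR2*, a sphingosine-1-phosphate receptor gene, and *MIR4322*, so its peaks cannot be assigned to *DNMT1* alone. The other 2, 5.2 kb upstream and 51.7 kb downstream of the canonical start, were open in LOF replicate 1 only.

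The promoter of *DNMT1* (chr19:10194299-10195496, over exon 1) had a fold enrichment of 4.47 and 4.56 in WT, 3.84 and 4.05 in Y641F, 4.19 and 4.18 in A677G, with 5.23 and 4.37 in the LOF line. Fold enrichment is the pileup of fragments over the local background, averaged over the peak by the peak caller. All 4 GOF libraries lay below the 4 others. The −log10 p of the peaks was 11.9 and 12.2 in WT, 5.71 and 6.55 in Y641F, 8.40 and 9.46 in A677G, with 12.5 and 10.5 in the LOF line. The order was the same, with the GOF libraries lowest and no overlap. Over the promoter regions open in all 8 libraries, −log10 p was below both WT libraries at 82.1% in Y641F and 71.2% in A677G. For fold enrichment this was so at 41.7% and 31.5%. The share with all 4 GOF libraries below the 4 others was not computed.

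The *DNMT3A* promoter (chr2:25341846-25343079) had a fold enrichment of 3.88 and 4.37 in WT, 3.22 and 3.98 in Y641F, 4.48 and 4.07 in A677G, with 3.61 and 3.63 in the LOF line. Here the LOF libraries were below both WT libraries and the other lines overlapped WT. The *DNMT3B* promoter (chr20:32761484-32762722) had 3.31 and 2.84 in WT, 2.92 and 2.70 in Y641F, 2.79 and 2.73 in A677G, with 3.26 and 3.43 in the LOF line. It was the weakest of the 8, at percentile 7.54 of the fold enrichment of promoter regions open in all 8 libraries (median over libraries). Both A677G libraries of *DNMT3B* were below both WT libraries, whereas Y641F and the LOF line overlapped WT.

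Among the erasers, the *TET1* promoter (chr10:68560235-68562846) had a fold enrichment of 3.08 and 3.15 in WT, 3.39 and 3.55 in Y641F, 3.37 and 3.37 in A677G, with 3.06 and 3.51 in the LOF line. All GOF libraries were above both WT libraries, and the LOF libraries lay on either side. Its covered length was 2479 and 2606 bp in WT, 1373 and 1018 bp in Y641F, 1519 and 1995 bp in A677G, with 1974 and 1005 bp in the LOF line. *TET1* had the widest promoter of the group, at percentile 95.2 of promoter width, and every mutant library was narrower than both WT libraries.

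The *TET2* promoter (chr4:105146051-105148165) had a fold enrichment of 3.25 and 3.45 in WT, 3.69 and 3.27 in Y641F, 4.05 and 3.66 in A677G, with 3.77 and 3.76 in the LOF line. It covered 2115 and 2071 bp in WT, 822 and 1217 bp in Y641F, 922 and 877 bp in A677G, with 1084 and 1851 bp in the LOF line. A677G and LOF libraries were thus higher in fold and shorter in length than both WT libraries. The *TET3* promoter (chr2:74002071-74003266), at the downstream start shown above, had a fold enrichment of 3.64 and 3.74 in WT, 3.08 and 3.55 in Y641F, 4.28 and 3.50 in A677G, with 3.84 and 4.55 in the LOF line. Y641F was below and LOF above WT, whereas the A677G libraries lay on either side.

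The *UHRF1* promoter (chr19:4909232-4910376) had a fold enrichment of 3.76 and 3.94 in WT, 2.96 and 3.67 in Y641F, 3.55 and 3.43 in A677G, with 3.28 and 3.26 in the LOF line. All 6 mutant libraries were below both WT libraries. The *UHRF2* promoter (chr9:6412819-6414469) had a fold enrichment of 4.18 and 3.74 in WT, 3.93 and 4.10 in Y641F, 5.69 and 5.15 in A677G, with 4.55 and 5.10 in the LOF line. It covered 1492 and 1589 bp in WT, 851 and 1128 bp in Y641F, 374 and 505 bp in A677G, with 837 and 810 bp in the LOF line. The paralogues therefore differed in direction, with *UHRF2* peaks higher and narrower than in WT in A677G and in the LOF line, and Y641F within the range of WT in fold. The difference between the paralogues was not tested.

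**Figure D2:**
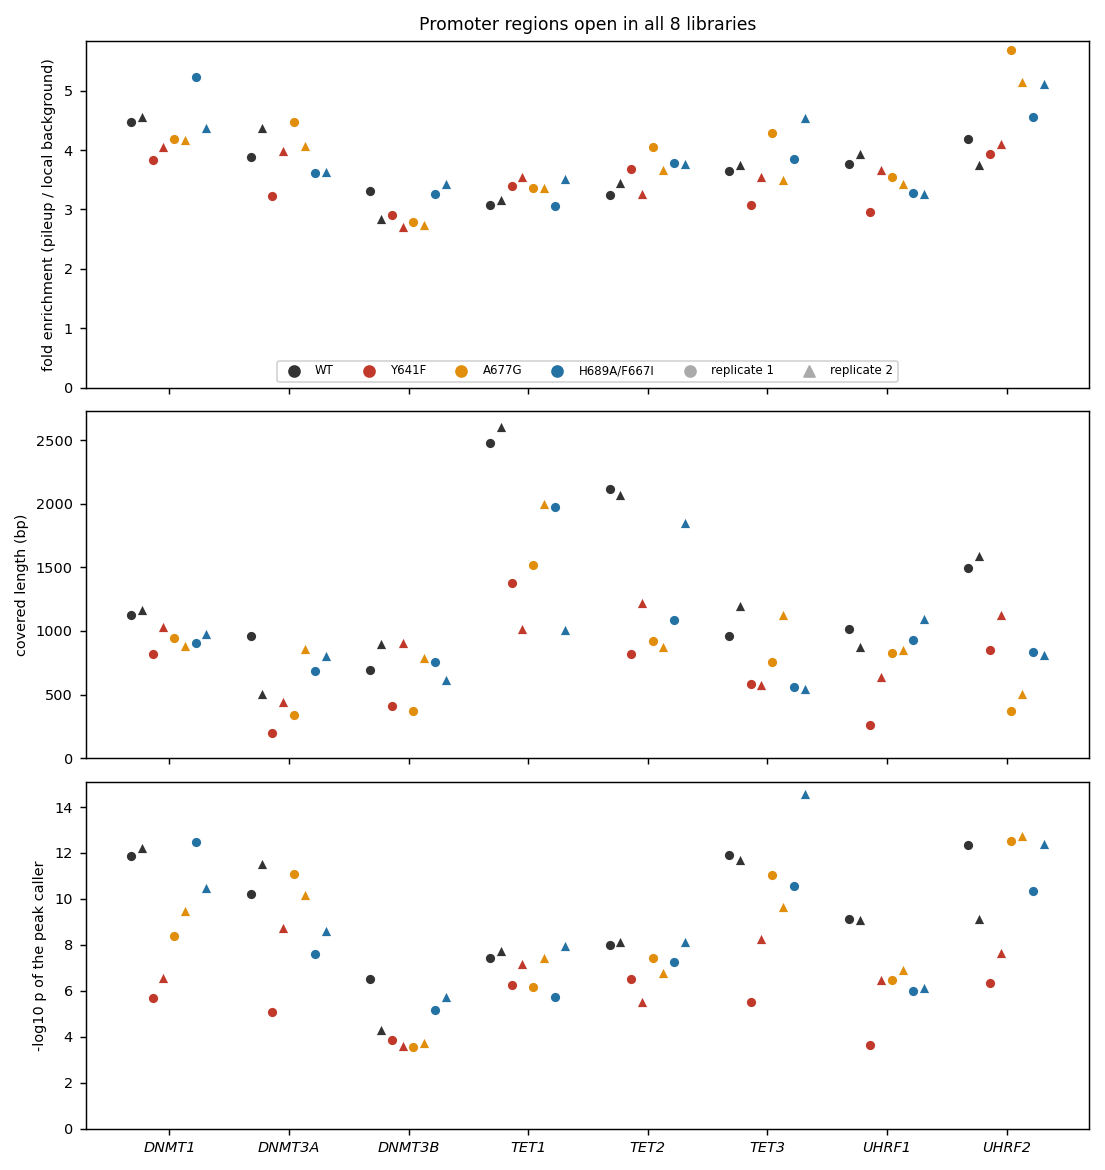
Fold enrichment, covered length in bp and −log10 p of the peaks (y axes) at the promoter regions open in all 8 libraries, by gene (x axis). Points are libraries, coloured by line, circles are replicate 1 and triangles replicate 2, and the A677G points of *UHRF2* are the highest in fold (5.69 and 5.15) and the lowest in length (374 and 505 bp) for that gene.

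As deposited, widths and −log10 p were lower than in WT at most promoters of the series, so the group was set against that background. Both Y641F libraries were narrower than both WT libraries at 7 of 8 promoters, *DNMT3B* being the exception, and this was so at 76.3% of the 11107 promoter regions open in all 8 libraries. For −log10 p it was 8 of 8 in Y641F, against 82.1%. In A677G the promoters were narrower than in WT at 5 of 8 genes (62.5% in the series), and in the LOF line at 5 of 8 (50.2%). For −log10 p they were lower at 5 of 8 in A677G (71.2%) and at 2 of 8, *DNMT3A* and *UHRF1*, in the LOF line (64.2%). These shares were close to those of the series, except for the −log10 p in the LOF line, where fewer promoters of the group were lower. That difference was not tested.

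Fold enrichment moved both ways. Both libraries of the mutant were below both WT libraries at 3 promoters in Y641F (*DNMT1*, *TET3* and *UHRF1*; 41.7% in the series), at 3 in A677G (*DNMT1*, *DNMT3B* and *UHRF1*; 31.5%) and at 2 in the LOF line (*DNMT3A* and *UHRF1*; 26.2%). They were above both WT libraries at 1 promoter in Y641F (*TET1*; 14.6%), at 3 in A677G (*TET1*, *TET2* and *UHRF2*; 18.3%) and at 3 in the LOF line (*TET2*, *TET3* and *UHRF2*; 18.5%). The −log10 p was above both WT libraries at *UHRF2* in A677G, which occurred at 2.34% of the promoters of the series. No promoter of the group was wider than in both WT libraries in any mutant, which was so at 0.666%, 1.39% and 3.55% of the promoters of the series in Y641F, A677G and the LOF line. The 3 mutants were compared with the same WT libraries, so these counts are not independent of each other.

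Differences relative to the median region of each library were tested with limma on log2 values over the 18787 regions open in all 8 libraries, with Benjamini-Hochberg adjustment over all of them. None of the 8 promoters passed an adjusted p of 0.05 in any of 12 tests, which were 3 measures in each mutant against WT and in GOF against WT and LOF together. For fold enrichment, 0.628% of all regions passed in Y641F, 0% in A677G, 0% in the LOF line and 0.016% in GOF. For −log10 p, 1.62%, 0.00532%, 0.00532% and 0.112% passed in the same order, and for covered length 0% in each. At an unadjusted p under 0.05, the promoters that passed numbered 1, 2, 1 and 2 of 8 for fold enrichment, 0, 2, 2 and 2 for covered length, and 0, 1, 0 and 1 for −log10 p, in limma and in the same order. Over all 18787 regions an unadjusted p under 0.05 was found in 21.5%, 14.5%, 8.91% and 18.3% for fold, in 16.8%, 8.38%, 5.1% and 14.1% for covered length, and in 19.2%, 12.7%, 9.03% and 15.8% for −log10 p, so most of these counts were near the share of the series. The 4 other regions open in all 8 libraries did not pass the adjusted p either, and 2 of their 48 values had an unadjusted p under 0.05 in limma, fewer than these shares of all regions would give. They were the fold of a *DNMT3B* intron in A677G and the −log10 p upstream of *TET1* in GOF.

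The *UHRF2* promoter in A677G had the lowest unadjusted p of the group. The mean fold enrichment of the A677G libraries was 5.42 ± 0.38, and that of WT was 3.96 ± 0.309 (SD, n = 2 each). Relative to the median region its fold enrichment was 1.44 times that of WT (95% interval 1.21 to 1.72, limma adjusted p = 0.139) and its covered length 0.370 times (0.269 to 0.508, limma adjusted p = 0.208). The −log10 p was 1.57 times that of WT (1.17 to 2.10, limma adjusted p = 0.204). These 3 measures describe the same peaks, and fold is averaged over the peak, so they are not independent. In the LOF line the log2 difference in fold was 0.33 (95% interval 0.08 to 0.58, limma adjusted p = 0.456), and the length was 0.637 times that of WT (0.464 to 0.876, limma adjusted p = 0.743).

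For *TET1*, the fold enrichment relative to the median region was 1.24 times that of WT in Y641F (95% interval 1.07 to 1.42, limma adjusted p = 0.102). With the same number of peaks in each library it passed, at a limma adjusted p of 0.0488, with nearly the same difference. Of all promoter regions 3.3% passed upwards in that setting. Without centring on the median region, the log2 difference of *TET1* in Y641F fell from 0.31 to 0.15 and did not pass (limma adjusted p = 0.311). For *TET2* in A677G the fold was 1.21 times (1.03 to 1.43, limma adjusted p = 0.281) and the length 0.563 times that of WT (0.377 to 0.840, limma adjusted p = 0.514). The *DNMT1* promoter, whose GOF libraries had lain lowest, had a −log10 p in GOF of 0.797 times that of WT and LOF (0.650 to 0.976, limma adjusted p = 0.259) relative to the median region. Without centring on that region its log2 difference was -0.67 and passed (limma adjusted p = 0.0117), as did 29.2% of all promoter regions in this direction, with a median over all regions of -0.32.

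At the promoters of the de novo methyltransferases the intervals, relative to the median region, included no change in each mutant. For fold enrichment on this scale, that of *DNMT3A* in Y641F ran from 0.812 to 1.15 times WT, and that of *DNMT3B* from 0.875 to 1.18 times. For covered length on the same scale, the *DNMT3A* interval in Y641F ran from 0.287 to 1.48 times WT. With 2 libraries per line, changes of that size in width could not be told apart from the spread between replicates.

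**Figure D3:**
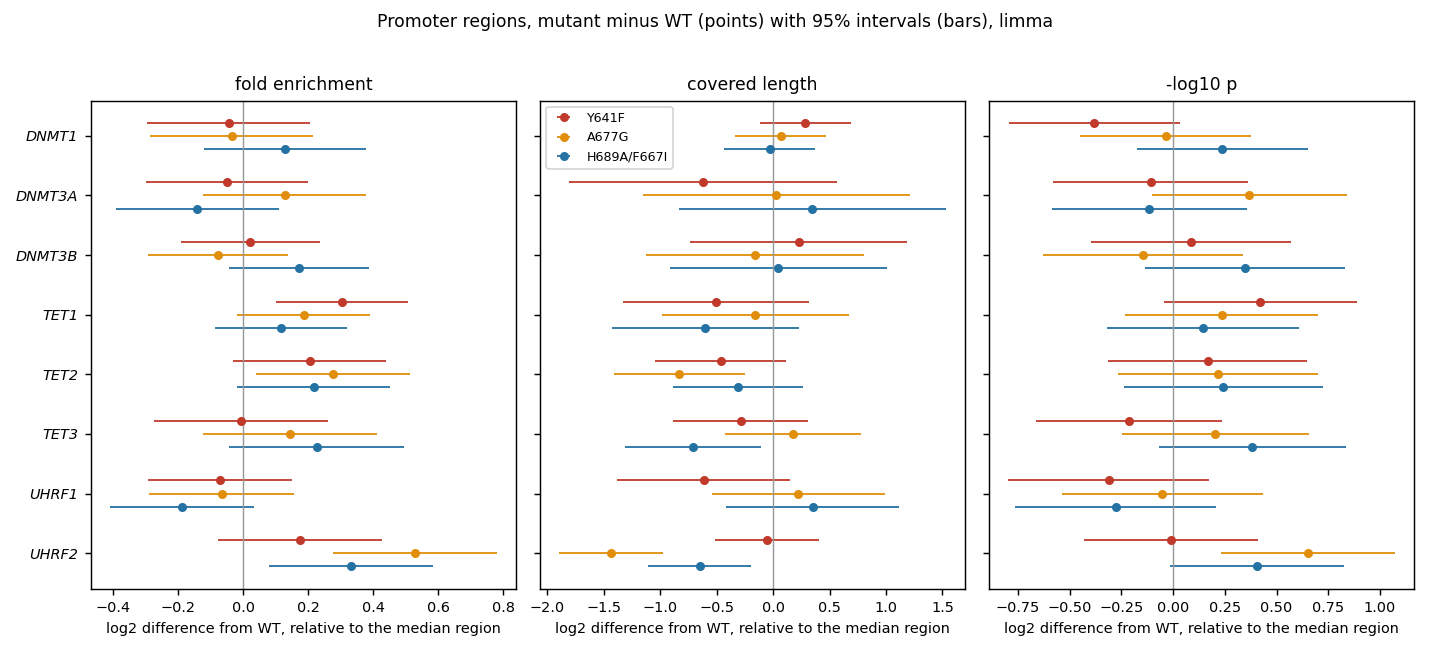
Log2 difference from WT (x axis) of fold enrichment, covered length and −log10 p at the 8 promoters (y axis), relative to the median region of each library. Points are limma estimates and bars are 95% intervals, coloured by mutant, and the A677G interval of *UHRF2* lies above 0 for fold and below 0 for covered length while 0 promoters passed the adjusted p.

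Away from promoters, regions were lost more often, as in the series. A region was called lost when both WT libraries were open and both libraries of the mutant were closed. Of 25 regions open in both WT libraries, 9 were lost in Y641F (36% against 35.3% of all such regions in the series), 6 in A677G (24% against 20.8%) and 4 in the LOF line (16% against 14.2%). None of the 9 promoter regions was lost in any mutant, and in the series 13.7%, 5.99% and 3.84% of promoter regions were lost in Y641F, A677G and the LOF line. Of the 16 other regions 56.2%, 37.5% and 25% were lost in the same order, against 45.5%, 27.9% and 19.1% in the series. Without WT replicate 1 the lost regions numbered 14 in Y641F, 11 in A677G and 8 in the LOF line, and without WT replicate 2 they numbered 7 in the LOF line. With the same number of peaks in each library they fell to 1 in Y641F, 2 in A677G and 2 in the LOF line.

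The regions lost in Y641F lay in *DNMT1*, *DNMT3A* (2 regions), *TET1* (2), *TET3* (3) and *UHRF2*. Those lost in A677G lay in *DNMT3A* (2), *TET1* (2), *TET3* and *UHRF2*, and those lost in the LOF line in *DNMT3A* (2) and *TET3* (2). None lay in *DNMT3B*, *TET2* or *UHRF1*. Of the 25 regions 3 were open in both WT libraries and in none of the 6 mutant libraries, which was so for 8.74% of such regions in the series. These were at 32.3 and 78.2 kb downstream of the canonical *DNMT3A* start and at 92.9 kb downstream of that of *TET3*, all in introns.

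The intronic *DNMT3A* region at 32.3 kb (chr2:25309429-25309726) had a fold enrichment of 4.14 and 4.13 and a −log10 p of 7.78 and 8.23 in the WT libraries. It was closed in the 6 mutant libraries. Its WT peaks remained when each library was limited to the same number of peaks, and at a −log10 q of at least 5. Both settings only remove peaks, so the mutant libraries had to stay closed. With the same number of peaks, 2.03% of the regions then open in both WT libraries were closed in all 6 mutant libraries. The share at the −log10 q limit was not computed. The second intronic *DNMT3A* region, at 78.2 kb (chr2:25263119-25264382), was weaker, with 3.05 and 2.85 in WT, and with the same number of peaks it was closed in all 8 libraries. The *TET3* region at 92.9 kb (chr2:74077681-74077956) had a fold of 4.95 and 4.17 in WT, and with the same number of peaks it was open in WT replicate 1 only.

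In *TET1* the intronic region at 71.5 kb (chr10:68631428-68632252) had a fold enrichment of 4.18 and 4.31 in WT and 3.81 in LOF replicate 2, and was closed in the 4 GOF libraries. The *TET1* region at 16.0 kb (chr10:68576140-68576501) had 4.30 and 3.97 in WT and 3.88 in LOF replicate 1, and was also closed in GOF. *UHRF2* had a region of this kind at 75.3 kb (chr9:6487965-6488986), with 3.15 and 3.25 in WT and 3.27 in LOF replicate 1. Within its gene body and outside its exons, at -24.8 kb from the canonical start, *DNMT1* had a region (chr19:10219493-10220094) with 3.73 and 3.01 in WT that was closed in Y641F only. In A677G it had a fold of 3.76 and 3.16, and in the LOF line 3.73 and 3.35.

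**Figure D4:**
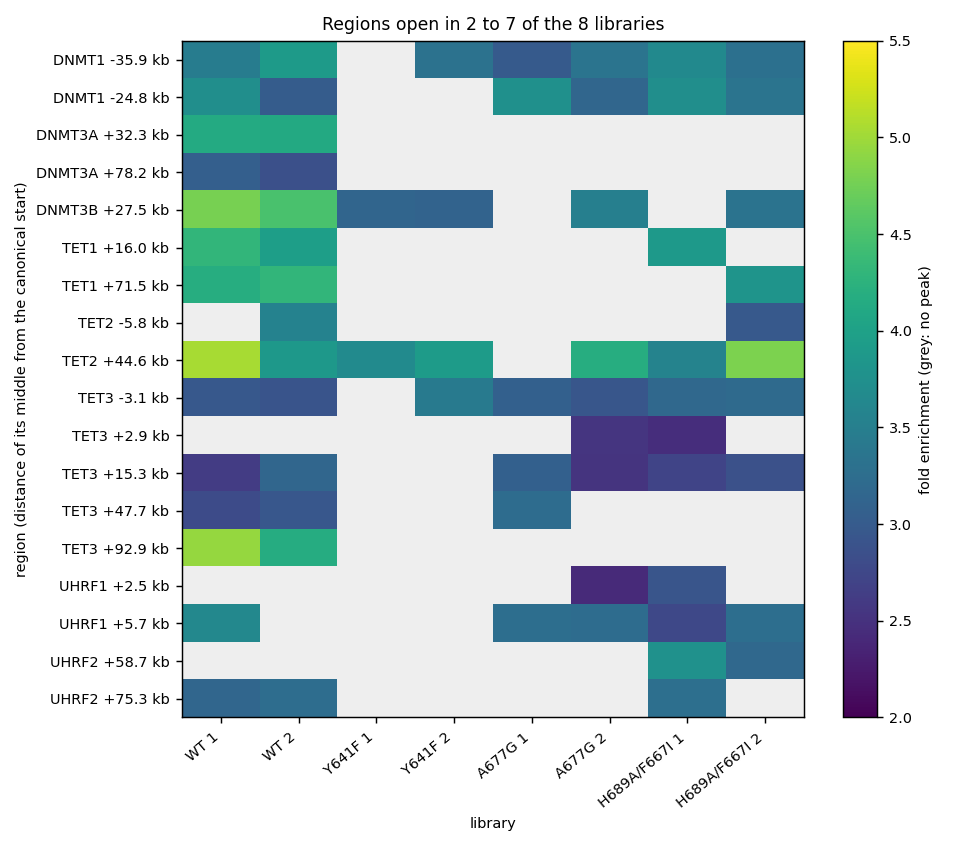
Fold enrichment (colour) of the 18 regions open in 2 to 7 libraries, by library (x axis) and by gene with the distance of the region from the canonical start (y axis). Grey marks a closed region, and the rows of *DNMT3A* at 32.3 and 78.2 kb and of *TET3* at 92.9 kb are coloured in the WT libraries alone.

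Regions were called gained when both WT libraries lacked a peak that the 2 libraries of a mutant had. Of 3 regions open in at least 2 libraries and in no WT library, 0 were gained in Y641F, 0 in A677G and 1 in the LOF line, against 8.77%, 13% and 22.4% of such regions in the series. None of the 3 was a promoter region. In the series the gained share was 10.5%, 14.5% and 20.3% of promoter regions and 8.58%, 12.9% and 22.6% of other regions, in the same order. The region gained in the LOF line lay in *UHRF2*, 58.7 kb from its start (chr9:6471524-6472231), with a fold of 3.77 and 3.18. This count rested on single libraries. It was 8 without LOF replicate 2 and 2 without LOF replicate 1 or without WT replicate 1. In A677G it was 6 without A677G replicate 1 and 1 without A677G replicate 2 or WT replicate 1, and in Y641F it was 2 without either Y641F replicate.

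Some intragenic and flanking regions were open throughout. The 3′ end of *DNMT3A*, over its exon 23 (chr2:25228770-25229380), had a fold enrichment of 4.75 and 5.84 in WT, 3.40 and 4.89 in Y641F, 5.00 and 4.65 in A677G, with 4.92 and 4.43 in the LOF line. In each mutant 1 library lay below both WT libraries and the other lay between them. The region over the internal *TET1* starts (chr10:68599434-68600800) had 5.07 and 4.74 in WT, 4.35 and 5.64 in Y641F, 4.93 and 4.74 in A677G, with 5.14 and 4.72 in the LOF line. It was the only region of the group that passed a −log10 q of at least 5 in all 8 libraries. In fold enrichment it exceeded the *TET1* promoter in each of the 8 libraries.

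Upstream of *TET1*, 4878 bp from its start (chr10:68554607-68555459), a flanking region had a fold of 5.65 and 5.05 in WT, 4.36 and 4.58 in Y641F, 4.35 and 4.69 in A677G, with 5.42 and 5.20 in the LOF line. The GOF libraries were the 4 lowest. How often this was so over the series was not computed. In the *DNMT3B* intron at 16.2 kb (chr20:32778443-32778805) the fold was 5.17 and 4.05 in WT, 3.30 and 4.06 in Y641F, 3.07 and 3.68 in A677G, with 4.02 and 3.69 in the LOF line. A second *DNMT3B* region at 27.5 kb (chr20:32789464-32790363) had 4.78 and 4.49 in WT, and 3.14 and 3.12 in Y641F. It was closed in A677G replicate 1 and in LOF replicate 1, and had 3.52 and 3.33 in the other libraries of these lines.

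The remaining intragenic regions with the highest WT fold in their gene were in *TET2* and *UHRF1*. The *TET2* region at 44.6 kb (chr4:105191073-105191871) had 5.04 and 3.86 in WT and was closed in A677G replicate 1 only. The *UHRF1* region at 5.7 kb (chr19:4914901-4915439) had 3.63 in WT replicate 1, was closed in WT replicate 2 and in Y641F, and was open in both libraries of A677G and of the LOF line.

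The length covered by peaks over a whole gene, 5 kb around its starts included, was lowest in Y641F for the group. It summed to 21695 and 22023 bp over the 8 genes in WT, 8625 and 10614 bp in Y641F, 10585 and 14751 bp in A677G, with 15712 and 13903 bp in the LOF line. The sums of the lines were 44%, 58% and 67.7% of that of WT in Y641F, A677G and the LOF line, and over all peaks of the series these shares were 44.8%, 59% and 71.6%. The number of peaks of the group was 61%, 79.7% and 91.5% of that of WT, against 49.4%, 66.2% and 75.8% over all peaks. The lower length thus went with fewer peaks and with shorter ones.

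*DNMT1* was the 1 gene of 8 in which the covered length did not overlap between the GOF libraries and the others. It was 2843 and 2121 bp in WT, 821 and 1558 bp in Y641F, 1506 and 1612 bp in A677G, with 2348 and 1972 bp in the LOF line. The exact two-sided permutation test of 4 against 4 libraries gave p = 0.0286, the smallest that it allows, and 0.138 after adjustment over 17611 genes. Not overlapping in either direction were 20.7% of these genes, of which 3649 were lower and 1 (0.00568%) was higher in GOF. No gene passed the adjusted p of 0.05 in this exact test. It took the libraries as separate units, although each line gave 2, so it does not measure the spread between lines. With the same number of peaks in each library 0 genes of the group did not overlap (11.4% of genes in the series), and at a −log10 q of at least 5 they were *TET2* and *UHRF2* (16.7%). *UHRF2* joined *DNMT1* without Y641F replicate 2 or LOF replicate 2, *DNMT3A* without A677G replicate 2 and *TET2* without LOF replicate 1.

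The ratio of mean covered length in GOF to that in WT and LOF together was lowest in *UHRF2* (0.378) and *DNMT3A* (0.496) and highest in *DNMT3B* (0.848). The median of the 8 genes was 0.603, against 0.666 over 17417 protein-coding genes. In *UHRF2* the length was 374 and 505 bp in A677G, where the promoter was the only peak, and 851 and 1533 bp in Y641F. The groups of *UHRF2* overlapped only because LOF replicate 2, with 1351 bp, was below Y641F replicate 2.

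**Figure D5:**
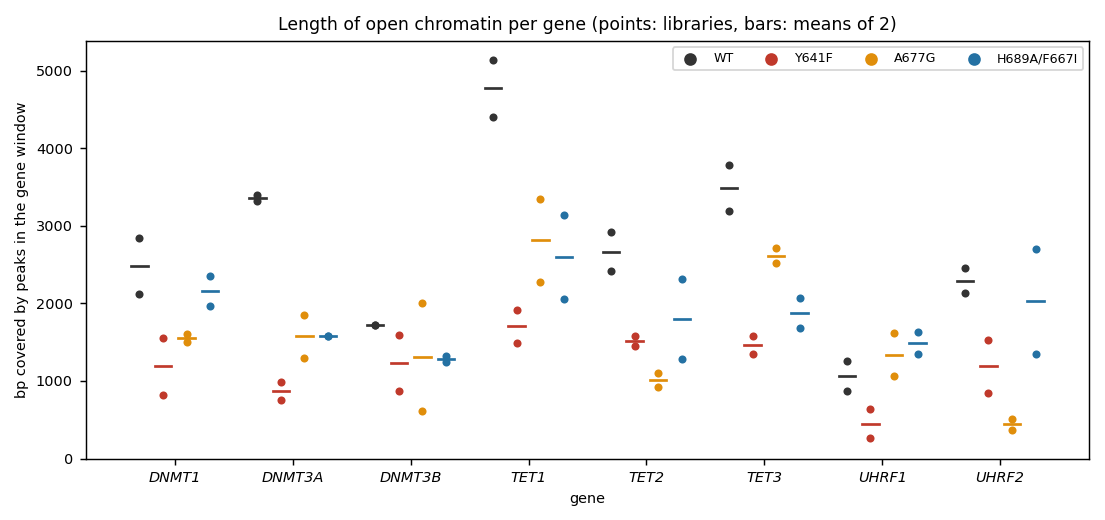
Length in bp covered by peaks in the window of each gene (y axis), by gene (x axis) and line (colour). Points are libraries and bars are means of 2, and the GOF libraries of *DNMT1* lie between 821 and 1612 bp, below the 1972 to 2843 bp of the WT and LOF libraries.

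Other genes of DNA methylation, from a list of 31 that holds methyl-CpG readers, base excision repair enzymes and suppliers of the methyl donor, were mostly open as well. The promoter was open in all 8 libraries in 24 of 31 (77.4%). *DNMT3L*, a cofactor of the de novo methyltransferases in germ cells, *ZFP57*, a zinc finger protein of imprinted loci, and *DPPA3*, a maternal factor, had no promoter peak in any library. In *MBD3*, *USP7*, *CXXC5* and *DMAP1* the promoter was open in 7 libraries and closed in 1 of the Y641F libraries. Of the 25 promoter regions tested, 1 rose and 1 fell in −log10 p in Y641F, where 1.62% of all regions passed. In the other 11 tests with limma 0 passed, and 3 to 8 of the 25 regions per test had an unadjusted p under 0.05. Over all regions 5.1% to 21.5% per test did.

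Of 2 promoter regions tested at *IDH1*, whose enzyme makes the 2-oxoglutarate that TET enzymes use, 1 did not pass. The other was the region that rose. Its −log10 p was 13.5 and 15.2 in WT and 17.3 and 16.1 in Y641F, a log2 difference of 0.82 relative to the median region (limma adjusted p = 0.0311). As deposited, the values of Y641F were above those of WT, and so were the 15.8 and 16.2 of A677G and the 17.4 and 17.7 of the LOF line. That which fell was the promoter of *TRIM28*, a corepressor that brings silencing to repeats. Its −log10 p was 19.3 and 19.1 in WT and 6.32 and 8.45 in Y641F, a log2 difference of -0.80 (limma adjusted p = 0.0317). The A677G and LOF libraries of *TRIM28* had 15.3 to 18.5.

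The promoters of other genes whose fold enrichment over the 8 libraries was nearest to that of 7 of the genes were also listed, by Euclidean distance of log2 fold after centring each library on its median. The nearest to *DNMT1* was the promoter of *SLC25A4* (distance 0.178, median over 11106 promoters 0.767), to *DNMT3A* that of *PLCG2* (0.184, median 0.808) and to *DNMT3B* that of *PHF19* (0.18, median 1.47). For the erasers it was *PTPRK* for *TET1* (0.147, median 1.1) and *PCSK7* for *TET2* (0.182, median 0.874). For *UHRF1* it was the promoter shared by *KLHL42* and *MANSC4* (0.158, median 0.95), and for *UHRF2* that of *PDF* (0.247, median 0.929). Among these 7, *UHRF2* had the most distant nearest promoter, and none of those listed belonged to another gene of the group.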

How the data were processed

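ATAC-seq peak lists of 8 libraries, 2 per line, were analysed. Per the study, reads were trimmed with Trim Galore 0.6.5, aligned with BWA 0.7.17 and broad peaks called per library with MACS2 2.2.7.1. Its protocol text also names CUT&Tag. The peak files were deposited by the authors with the fold enrichment, the −log10 p-value, the −log10 q-value and a display score of each peak, and the score was not used. No depth or fragment count was given, so no counting interval was possible, and a closed region may lie just under the threshold of the peak caller.

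Peaks on chromosomes 1 to 22 and X that shared at least 1 bp over the 8 libraries were merged. Starts came from GENCODE 44 and RefSeq on GRCh38. Promoters lay within 1 kb of a GENCODE start, and gene windows ran over the gene body and 5 kb around each start. In each region and library the fold and the −log10 p were averaged over the peaks, weighted by their length, and width was the length covered. Log2 values over the 18787 regions open in all 8 libraries were centred on the median of each library and tested with limma 3.58.1 (R 4.3.3, moderated with a trend, Benjamini-Hochberg adjustment). The fit was tested on simulated data, with normal values and planted changes in fold in Y641F. It recovered the larger planted changes and missed many of the smaller ones, so small changes at the promoters may be missed. Covered length per gene was compared by an exact two-sided permutation test of the libraries, with replicates of a line taken as separate units. The smallest exact p of 2 against 2 libraries is 0.333, so single lines were not tested in that way. Tables were made with Python 3.11.15 and pandas 2.3.3.

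Named in the text are the 8 genes, all their promoter regions, the other region with the highest WT fold of each gene, up to 3 lost and 3 gained regions per mutant by WT fold, the nearest promoters, and the list genes that passed a test or had no promoter peak. The *MBD3*, *USP7*, *CXXC5* and *DMAP1* promoters, the regions open in WT alone, a *TET1* region at 16.0 kb, the intragenic regions open in all 8 libraries and the starts with sequences were named after their values were seen. The nearest promoter of *TET3* is not reported here. The members and lists were chosen with earlier results of these data known. Replicates are described as independent biological replicates of 1 derived population per line. The alternatives were a stricter −log10 q, the same number of peaks, other overlaps and windows, other scalings, a replicate block and leaving out each library.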

Additional observations from a re-analysis of the deposited data

Results flagged for a closer look

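In 64 groups of 4 libraries, 4 held a library far from the other 3, by the gap to its nearest neighbour over the range of the group. Chance does this in about 1 in 20 groups when all 4 values come from the same normal distribution. The groups here joined Y641F with A677G, or WT with LOF, and shared libraries, so that rate need not hold for them. At the *TET1* promoter, Y641F replicate 2 had a fold enrichment of 3.55 (3.5459), against 3.3659 to 3.389 in the other GOF libraries. At *UHRF1*, Y641F replicate 1 had a −log10 p of 3.6395, against 6.4525 to 6.8876. At *TET2*, LOF replicate 1 had a −log10 p of 7.245, against 7.9908 to 8.1241 in the other WT and LOF libraries. In the *DNMT1* window Y641F replicate 1 had 821 bp covered, against 1506 to 1612 bp in the other GOF libraries. Y641F replicate 1 was also the library with the fewest peaks, 26350, and its part in these values was not tested.

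Over 24 combinations of promoter and measure, with 3 pairs of mutants in each, 5 pairs in 3 combinations had both libraries of 1 mutant above and both of the other below WT after centring. How often this was so at the other promoters of the series was not computed, so it cannot be called particular to these genes. The difference between the mutants was not tested in any of them. At *UHRF1*, A677G and Y641F differed by 0.838 in log2 width (0.224 and -0.614 against WT), and the LOF line and Y641F by 0.964 (0.35 and -0.614). In log2 −log10 p, the LOF line and Y641F differed by 0.62 at *DNMT1* (0.238 and -0.381). At *TET3*, A677G and Y641F differed by 0.418 (0.205 and -0.213), and the LOF line and Y641F by 0.597 (0.384 and -0.213).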

How the results depend on the processing

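Over the alternatives, 193 counts for comparisons equalled the main count or lay within 1.5 times of it. A further 28 counts moved by over 1.5 times, or to or from 0. Single promoters were followed only for the 14 differences with an unadjusted p under 0.05 in the main limma fit. For these, 180 values kept their direction and their side of the threshold and 2 passed it. No direction of these was reversed. They had been picked by a small p in the same libraries, so a reversal was unlikely from the start. Without centring on the median, 5 promoters passed the limma adjusted p of 0.05 with a lower −log10 p in Y641F (*DNMT1*, *DNMT3A*, *TET3*, *UHRF1* and *UHRF2*). In GOF 3 passed in this direction (*DNMT1*, *DNMT3B* and *TET3*). Of all promoter regions 52% and 29.2% passed in the same way. The median over all regions fell by 0.55 in Y641F and 0.32 in GOF on the log2 scale. With the same number of peaks, the fold of *TET1* in Y641F passed, the 1 promoter of 7 tested. Lost regions were then 1 in Y641F, 2 in A677G and 2 in the LOF line, gained regions in A677G were 2, and 0 genes had covered lengths that did not overlap. At a −log10 q of at least 5, 3 regions were lost in A677G, 0 were gained in the LOF line, and covered lengths did not overlap in 2 genes. No promoter of the group then had peaks in all 8 libraries, so none could be tested. With peaks over at least 50% of a region, 8 were lost in the LOF line.

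With 1 library left out at a time, lost regions ranged from 9 to 14 in Y641F, 7 to 11 in A677G and 6 to 8 in the LOF line, gained regions from 0 to 2, 0 to 6 and 1 to 8, and genes without overlap from 1 to 2. The limma counts stayed at 0 for the promoters. Replicate numbers did not pair the samples, since deviations of same-numbered libraries correlated between -0.0186 and 0.0395. With the replicate block, 0 promoters were called in each of 12 tests. Counts over all regions depended on the scaling, as fold in Y641F had 118 called regions, 1172 without centring, 0 with quantile scaling, 1 with the replicate block, 545 with the same number of peaks and 231 with the highest peak. For −log10 p in Y641F they were 305, 8740 without centring and 172 with quantile scaling. The calls for *IDH1* and *TRIM28* were not recomputed under the alternatives.

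The adjusted p of *UHRF2* in A677G ranged from 0.0866 to 0.43 for fold and 0.0696 to 0.919 for width over 13 alternatives in limma. With 2 libraries per line and no read depth, a missing peak and a weak one cannot be told apart, and each line is 1 derived population.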

Other observations

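The regions of the group open in all 8 libraries differed in base composition by position. The median ratio of observed to expected CpG was 0.729 in the 8 promoter regions and 0.309 in the 4 others, against 0.74 and 0.287 in the regions of these classes open in all 8 libraries over the series. In the member regions open in 1 to 7 libraries it was 0.271. The median GC content was 64.5%, 54.5% and 51.8% in the same order. These values describe the regions, and no test was made of them.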
